A study of Mus musculus with 16 samples.

Results

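The genes described here are those of the deposited comparison tables whose products are annotated to the nucleus. They comprise 113 array probes for 103 genes, out of 932 probes for 840 genes in the authors' 2 tables, 1 for each transgene (12.1% of the probes). A probe was taken when its cellular component annotation held the term nucleus and neither the mitochondrion nor the extracellular region. Of 136 nuclear probes, 1 was left out for those terms and 22 by gene name, among them histone genes and several known spermatid and cell cycle genes. Names were matched as the deposited tables give them. The H2A-like histone gene H2al1e, listed there under an older name, therefore stayed among the lower members (-0.66 in TgMsi2 testes). The authors' deposited TgMsi2 table gave 69 members (25 higher and 44 lower in the transgenic testes) and the authors' deposited TgMsi1 table gave 44 (18 higher, 26 lower). No member is in both. The tables themselves were made from these arrays, so the differences that put a gene into a table are given below as a description, and tests are given for the comparison that the table did not use.

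Transcription factors bind DNA at short motifs and recruit the Mediator complex, chromatin remodellers and the basal machinery, in which the TATA-binding protein and its associated factors assemble at promoters. Male germ cells use unusually large amounts of this machinery, and they store and splice many transcripts before chromatin is compacted in spermatids. The Musashi proteins bind RNA and control how their target transcripts are translated, spliced and degraded, and Musashi-1 and Musashi-2 are both known from the germline.

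RNA came from whole testes of adult mice of 3 months and of the mixed strain B6xCBA, and was hybridised as biotin-labelled cRNA to 16 Illumina bead arrays. The TgMsi1 group carried a Musashi-1 transgene active specifically in testis and was set against wild-type littermates, Wt(TgMsi1). The TgMsi2 group carried a Musashi-2 transgene of the same kind and was set against littermates of its own, Wt(TgMsi2). Each of the 4 groups holds 4 arrays. The labels name neither the promoter nor the cell type that drives the transgenes, and they do not say whether the 4 replicates come from separate mice. The p-values therefore reflect the variation among these arrays alone, and part of it may be technical. In whole testis, fewer cells of a type and less RNA per cell cannot be told apart.

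All values are the deposited log2 signals, which run from 7.37 to 14.51 on these arrays, and a difference is the transgenic minus the wild-type group mean. Every member probe had a mean log2 signal above 8 (8.12 to 13.26). Arrays of 1 group correlated at 0.988 to 0.996 across all probes. The transgenes' own probes are not named in the comparison tables, so they were not used to check the labels. Among the members of the TgMsi2 table, TgMsi2 replicate 1 was the array farthest from the wild-type mean for 47 of 69 probes, and replicate 3 for 15. In TgMsi1 testes replicate 2 was the farthest for 53 of those 69. Values without these 3 arrays are given where a result rests on them.

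The deposited tables also list markers of other testis cells. Of the marker genes on the array, 4 of 16 for Sertoli, 5 of 15 for Leydig, 4 of 18 for macrophage, 2 of 8 for myoid and 1 of 10 for endothelial cells are in the authors' deposited TgMsi2 table, all higher. Round spermatid markers had 4 of 15 there, elongating spermatid markers 1 of 12 and spermatocyte markers 1 of 15, all lower, and spermatogonial markers had 0 of 10. The TgMsi1 table lists 1 macrophage marker as higher, and 1 spermatocyte and 1 elongating spermatid marker as lower. The sums that follow cover the marker probes of these tables alone, which were listed for differing, so their separation in the line of their own table is set by that choice. For the listed Leydig probes the summed linear signal was 16231 to 25115 in TgMsi2 arrays and 9730 to 13561 in Wt(TgMsi2) arrays. The listed Sertoli probes summed to 39881 to 58030 in TgMsi2 arrays and 29748 to 34637 in Wt(TgMsi2) arrays, and the listed macrophage probes to 3260 to 4155 in TgMsi2 arrays and 1662 to 2096 in Wt(TgMsi2) arrays. The listed round spermatid probes, all from the TgMsi2 table, summed to 6384 to 10594 in TgMsi1 arrays and 9563 to 11494 in Wt(TgMsi1) arrays, and to 5162 to 8615 in TgMsi2 arrays and 10408 to 12399 in Wt(TgMsi2) arrays. For the listed elongating spermatid probes, 1 from each table, the sums were 11725 to 16107 in TgMsi1 arrays and 17138 to 20937 in Wt(TgMsi1) arrays, and 13497 to 15941 in TgMsi2 arrays and 21670 to 23493 in Wt(TgMsi2) arrays. The part of these cell types in the members' differences was not tested. No marker can be called at 0 on these arrays, because the lowest deposited values lie well above 0.

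Member probes of the TgMsi2 table were lower more often than the other probes listed there. Of the 69 members, 63.8% were lower, against 39.3% of the 631 other probes of that table and 28.4% of the 457 others that carry component terms. Counted by gene, 35 of the 59 were lower, since several lower genes are read by more than 1 probe. The other probes include nuclear probes that were left out by name. Of the TgMsi1 members, 59.1% were lower, against 45.5% of the 202 other probes. These shares describe the lists, since all probes in them were chosen for their differences. Over the whole array the authors' deposited TgMsi2 table lists 1.59% of 25697 probes as higher and 1.14% as lower, and the TgMsi1 table lists 0.498% as higher and 0.459% as lower.

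The largest negative differences in TgMsi2 testes among the sequence-specific factors were those of homeobox genes. Hoxc9, a posterior Hox gene that patterns the trunk, read 8.61, 8.90, 9.15 and 8.44 in the TgMsi2 arrays, against 9.73, 10.41, 10.11 and 10.002 in the Wt(TgMsi2) arrays. The groups did not overlap, and the difference of -1.29 is a 2.44-fold lower signal. In the other line Hoxc9 read 9.74, 9.59, 9.87 and 9.66 in TgMsi1 arrays and 9.44, 9.35, 9.66 and 9.62 in Wt(TgMsi1) arrays, and these groups overlapped. Hoxa4, a Hox gene known to be transcribed in mouse male germ cells, read 9.61, 9.91, 9.71 and 9.73 in TgMsi2 arrays, against 11.07, 10.69, 11.02 and 10.92 in Wt(TgMsi2) arrays. Its difference was -1.19, with all TgMsi2 arrays below all of their wild-type arrays. Atf2, a basic leucine zipper factor that binds the cyclic AMP response element, read 9.001, 9.30, 9.16 and 9.24 in TgMsi2 arrays, against 9.72, 10.05, 9.89 and 10.23 in Wt(TgMsi2) arrays, a difference of -0.80 without overlap.

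Lower in TgMsi2 testes as well were Zscan21, Zfp423 and Zfp317, which encode zinc finger proteins. Zscan21, a SCAN domain zinc finger gene, read 9.49, 9.67, 9.83 and 9.67 in TgMsi2 arrays, against 10.59, 10.96, 10.81 and 10.81 in Wt(TgMsi2) arrays. Its difference was -1.13, and a separate probe of the same gene gave -0.74. The 4 TgMsi2 arrays of Zscan21 spread over less than their distance from the wild-type arrays. Zfp423, a many-fingered cofactor known for committing cells to the fat lineage, read 9.46, 10.11, 9.41 and 9.88 in TgMsi2 arrays, against 10.73, 10.94, 10.85 and 10.42 in Wt(TgMsi2) arrays. That difference was -1.02 for 1 probe and -0.96 for the other. Zfp317 had differences of -0.87 and -0.81 from its pair of probes, again with no overlap between TgMsi2 and Wt(TgMsi2) arrays.

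**Figure D1:**
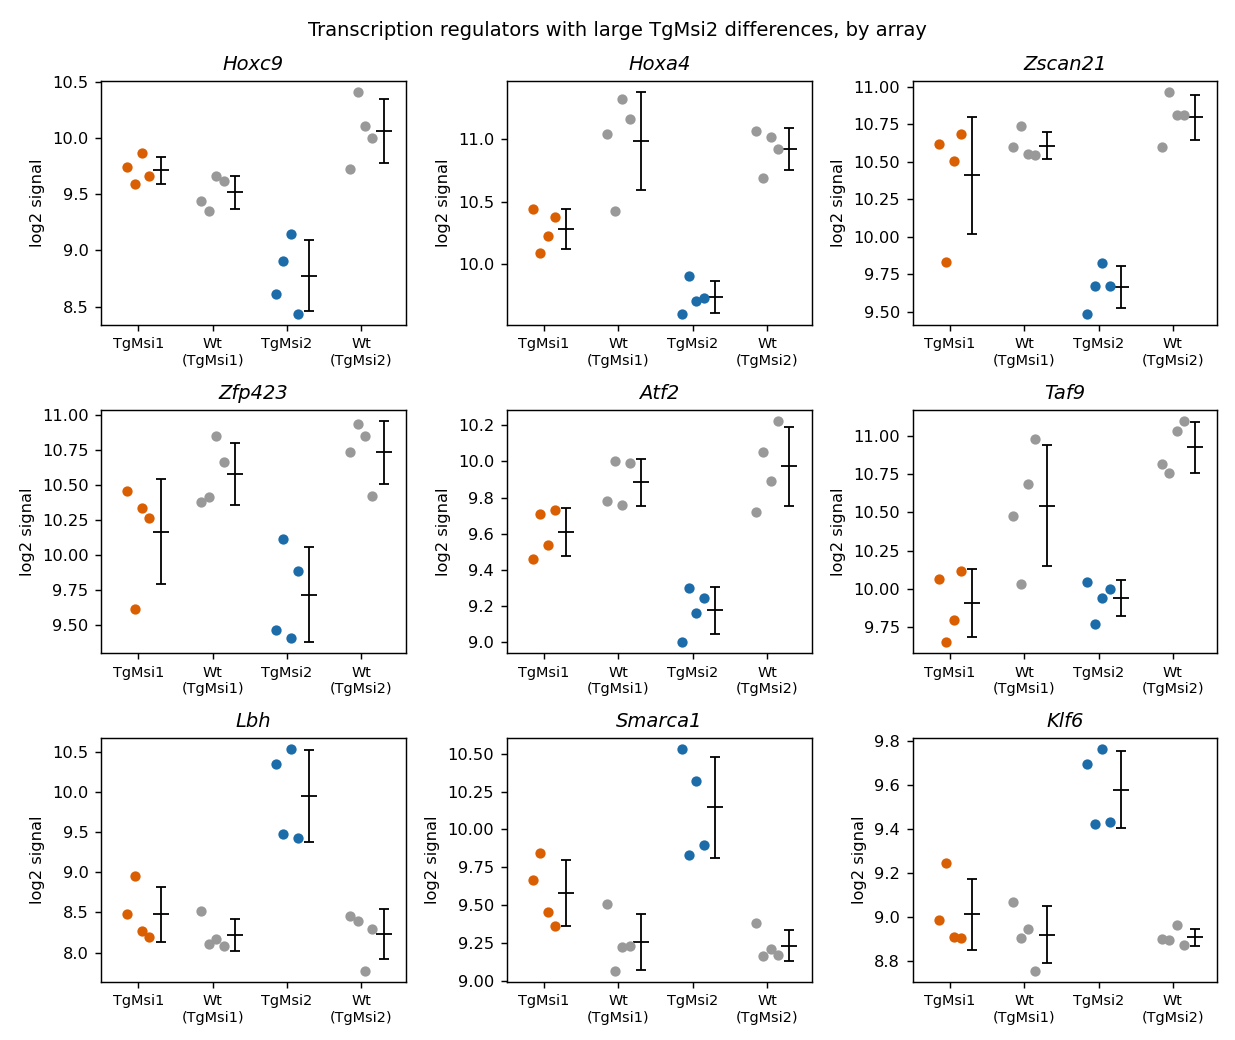
Deposited log2 signal of 9 transcription regulators on each array (points, replicates 1 to 4 from left to right) in TgMsi1, Wt(TgMsi1), TgMsi2 and Wt(TgMsi2) testes, for the probe of each gene with the larger TgMsi2 difference; black bars are the group mean ± SD of 4 arrays. The top 6 genes lie lower and the bottom 3 higher in all TgMsi2 arrays than in all Wt(TgMsi2) arrays, while in the TgMsi1 line only Atf2 separates all 4 transgenic from all 4 wild-type arrays.

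Several genes are read by more than 1 probe, and the probe sequences show which readings are separate measurements. They are given 5′ to 3′ in lower case from the deposited tables, with the run that a pair of probes shares in capitals. The Zfp423 pair, on chromosome 8, shares 43 of 50 bases, and a Usp1 pair, on chromosome 4, shares 47, so the near-equal differences within each pair are close to a repeat of the same reading. The deposited tables give probe positions on the genome without a build, and they place the overlapping Usp1 pair far apart, so only chromosomes are given here for probes.
Zfp423 probe 1: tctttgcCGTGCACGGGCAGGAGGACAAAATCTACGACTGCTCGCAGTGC
Zfp423 probe 2: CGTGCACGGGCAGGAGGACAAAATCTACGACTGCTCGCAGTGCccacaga
Usp1 probe 1: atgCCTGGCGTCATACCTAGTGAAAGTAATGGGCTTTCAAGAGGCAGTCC
Usp1 probe 2: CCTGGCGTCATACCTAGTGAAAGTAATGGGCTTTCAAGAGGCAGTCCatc

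By the same comparison the probes of Zfp317 share 31 bases, whereas those of Aatf, Cers2, Rbms1, Taf9 and Zscan21 share fewer than 20 and are separate. The probes of Zscan21 (chromosome 5) and Taf9 (chromosome 13) that gave the smaller of the 2 differences for these genes are shown next, all in lower case because neither shares a run with the gene's other probe.
Zscan21 probe: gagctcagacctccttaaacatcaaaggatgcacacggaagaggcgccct
Taf9 probe: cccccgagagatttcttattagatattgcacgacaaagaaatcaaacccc

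Taf9 and Tbp, which work in the same complex at promoters, had lower means in both transgenic groups. Taf9, a subunit of the TFIID complex whose locus is shared with an adenylate kinase gene, read 10.05, 9.77, 9.94 and 10.001 in TgMsi2 arrays, against 10.81, 10.76, 11.03 and 11.10 in Wt(TgMsi2) arrays. Its difference was -0.99, with -0.65 from the separate probe shown above. In TgMsi1 arrays Taf9 read 10.06, 9.65, 9.80 and 10.12, against 10.48, 10.04, 10.69 and 10.98 in Wt(TgMsi1) arrays, and there the groups overlapped through Wt(TgMsi1) replicate 2. Tbp, the TATA-binding subunit of TFIID, came from the TgMsi1 table. It read 11.27, 11.05, 11.12 and 11.43 in TgMsi1 arrays, against 11.64, 11.66, 11.54 and 11.55 in Wt(TgMsi1) arrays. In the TgMsi2 line, which did not choose it, Tbp read 11.21, 11.14, 11.16 and 11.34 in TgMsi2 arrays, against 11.33, 11.60, 11.84 and 11.61 in Wt(TgMsi2) arrays. Tbp thereby fell by 0.38 in TgMsi2 testes (limma adjusted p = 0.0205), although 1 TgMsi2 array overlapped the wild-type range.

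Among the transcription regulators that were higher in TgMsi2 testes, the cofactor Lbh, named for limb bud and heart, stood first. It read 10.35, 9.48, 10.54 and 9.43 in TgMsi2 arrays, against 8.45, 8.40, 7.77 and 8.29 in Wt(TgMsi2) arrays. The difference of 1.72 is a 3.30-fold higher signal, and replicates 1 and 3 were about 1 log2 unit above replicates 2 and 4. Smarca1, the ATPase of an ISWI chromatin remodeller encoded on the X chromosome, read 10.53, 9.83, 10.32 and 9.90 in TgMsi2 arrays, against 9.38, 9.17, 9.21 and 9.17 in Wt(TgMsi2) arrays. The same 2 TgMsi2 arrays led for Smarca1, whose difference was 0.91. Klf6, a zinc finger factor induced early after stimulation, read 9.70, 9.42, 9.76 and 9.43 in TgMsi2 arrays, against 8.90, 8.89, 8.97 and 8.87 in Wt(TgMsi2) arrays, a difference of 0.67. The protein kinase A inhibitor Pkia (0.78), the odd-skipped factor Osr2 (0.69) and the Groucho family corepressor Tle5 (0.59) also had positive differences. The TgMsi2 and Wt(TgMsi2) arrays overlapped for Osr2 and for Tle5, and neither passed in limma (adjusted p 0.0507 and 0.0887). Tle5 is also the member nearest the limit of the TgMsi2 table, at 1.501-fold, and the members just outside it were Sumo2 at 1.33-fold and Dip2b at 1.32-fold. In the TgMsi1 table, where the limit was 1.2-fold, the ubiquitin ligase gene Rnf34 was nearest to it at 1.21-fold.

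By the annotation of the deposited tables, 14 member probes fall in the class of sequence-specific transcription factors and 29 in that of other transcription regulators. Most of the 113 carry none of the terms that define these classes. Each probe was counted only in the first class that matched, with the transcription classes first, so the later classes leave out genes with a transcription term. RNA processing had 7 probes, of 6 genes, in the TgMsi2 table, all lower. Of these, Dis3 (-0.64) had overlapping TgMsi2 and Wt(TgMsi2) arrays and did not pass in limma (adjusted p = 0.166). Rbms1, a single-stranded nucleic acid binding protein, read 10.43, 10.93, 10.36 and 11.01 in TgMsi2 arrays, against 11.37, 11.40, 11.69 and 11.42 in Wt(TgMsi2) arrays (-0.78), and its separate probe gave -0.63. The others named in this class were the fibrillarin-like gene Fbll1 (-0.81), the SR-related gene Sfrs16 (-0.80), and Igf2bp3 (-0.68), which encodes an mRNA-binding protein. The kinase gene Clk4, whose product phosphorylates SR splicing factors, was counted with the signalling enzymes and was lower too (-0.67).

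DNA replication and repair had 5 lower probes, of 3 genes, and 1 higher probe in the TgMsi2 table, and 3 of the lower probes read Usp1. Usp1, the protease that removes ubiquitin from Fanconi pathway proteins, read 10.18, 10.27, 10.24 and 10.33 in TgMsi2 arrays, against 11.05, 11.13, 10.92 and 11.07 in Wt(TgMsi2) arrays (-0.79). The remaining Usp1 probe, separate from the overlapping pair, gave -0.60. Both readings of Usp1 left a gap between the groups wider than the spread within either. Rad52, a recombination protein, read 9.81, 9.96, 9.61 and 9.94 in TgMsi2 arrays, against 10.59, 10.44, 10.79 and 10.62 in Wt(TgMsi2) arrays, a difference of -0.78. The higher probe was that of Morf4l2 (0.78), a subunit of a histone acetyltransferase complex. Pgap2 (-0.65) carries a repair term in the tables, but its product is better known for remodelling lipid anchors in the Golgi.

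**Figure D2:**
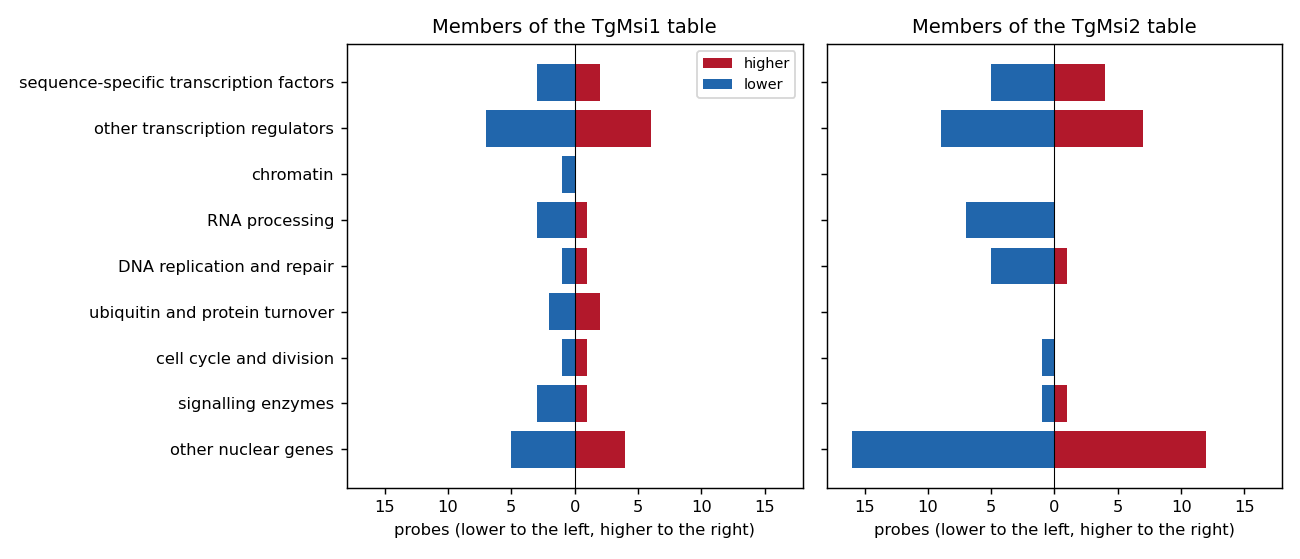
Number of member probes in each functional class, counted from the annotation of the deposited tables, that were lower (bars to the left) or higher (bars to the right) in TgMsi1 than in Wt(TgMsi1) testes (left) and in TgMsi2 than in Wt(TgMsi2) testes (right). Probes of the same gene are counted separately, and each probe only in the first class that matched, with the transcription classes first. All 7 RNA processing probes (6 genes) and 5 of 6 replication and repair probes (3 lower genes and 1 higher) of the TgMsi2 table were lower.

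The remaining 37 probes carry a nuclear term and none of the terms that define those classes. Zfp317 and Osr2, named above with the zinc finger and transcription regulator genes, are among them. Several of the other products are known mainly from other compartments. Higher in TgMsi2 testes were Serpina3g (1.41), a protease inhibitor of a near-identical gene family whose probe may read several copies, the membrane proteins Tmem176b (1.11) and Tmem109 (0.74), and Bex2 (0.80). Cers2, counted as a factor because its protein has a homeobox-like domain, encodes a ceramide synthase of the endoplasmic reticulum and was higher by separate probes (0.74 and 0.72). Hspb1, a small heat shock protein, read 10.65, 10.47, 10.77 and 10.20 in TgMsi2 arrays, against 9.81, 9.48, 9.56 and 9.44 in Wt(TgMsi2) arrays (0.95). All TgMsi2 arrays of Hspb1 lay above the highest wild-type array. Nupl1, a subunit of the nuclear pore channel, was among the tightest readings, at 8.78, 8.92, 8.84 and 8.80 in TgMsi2 arrays and 9.49, 9.58, 9.57 and 9.56 in Wt(TgMsi2) arrays (-0.72).

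In limma, 65 of the 69 members of the TgMsi2 table passed the adjusted threshold of 0.05 in the comparison that chose them (22 higher and 43 lower), where 11.5% of all 25697 probes passed, 6.2% higher and 5.32% lower. The groups did not overlap for 21 of the higher and 43 of the lower members, against 7.6% and 8.42% of all probes. Without TgMsi2 replicates 1 and 3 together, 20 of the 69 passed. Nothing is read from these counts, because the same arrays selected the probes.

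Whether the nuclear genes of the TgMsi2 table also moved with the Musashi-1 transgene is answered by the TgMsi1 line, whose arrays did not choose them. None of the 69 passed limma's adjusted threshold there (lowest adjusted p = 0.153), where 0.0117% of all probes did. At an unadjusted p under 0.05 there were 16 members, 1 higher and 15 lower, against 3.19% of all probes higher and 4.12% lower. Among probes whose mean log2 exceeded 8, as it did for all members, those backgrounds were 4.87% and 6.52%. Of the other probes of the TgMsi2 table, 63 of the 248 lower and 33 of the 383 higher ones also reached that unadjusted limma p, in the table's direction. An excess over all probes was therefore not particular to the nuclear genes. Some of the 15 lower members are probes of the same gene (Taf9, Usp1 and Zfp317). Of the 44 members lower in TgMsi2 testes, 40 lay below 0 in TgMsi1 testes, with a median log2 difference of -0.21. Of the 25 higher members, 23 lay above 0, with a median of 0.18. Among all probes 50.1% lay above 0 and 49.9% below, with a median of 0.00. The other probes of the TgMsi2 table had the same medians in TgMsi1 testes (-0.21 for the lower and 0.18 for the higher ones), and 92.4% of them kept their sign, against 91.3% of the members, so this is no property of the nuclear genes. Without TgMsi1 replicate 2, 60 of 69 members kept their sign and the medians were -0.14 and 0.10.

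The members with the smallest p in TgMsi1 testes were all lower, and none passed. Dcp1a, an activator of mRNA decapping, read 8.30, 7.93, 8.43 and 8.28 in TgMsi1 arrays, against 8.75, 8.53, 8.78 and 8.66 in Wt(TgMsi1) arrays, without overlap (-0.45; limma adjusted p = 0.153). In TgMsi2 arrays it read 7.88, 7.98, 7.97 and 8.10, against 8.81, 8.76, 8.71 and 8.92 in Wt(TgMsi2) arrays. Hoxa4 read 10.44, 10.09, 10.22 and 10.38 in TgMsi1 arrays, against 11.04, 10.43, 11.32 and 11.16 in Wt(TgMsi1) arrays (-0.70; limma adjusted p = 0.211). The low Wt(TgMsi1) replicate 2 made these Hoxa4 groups overlap. Without that array Hoxa4 and Taf9 passed in limma, with adjusted p-values of 0.00614 and 0.0369. This was the only 1 of 24 other settings in which either passed, and it is singled out here after seeing the values. In the rest the limma adjusted p ran up to 0.475 for Hoxa4 and 0.564 for Taf9. Zfp317 (-0.45), Taf9 (-0.64) and Nupl1 (-0.28) had limma adjusted p-values of 0.255, 0.285 and 0.335 with all arrays. Over the 69 members, the 4 against 4 arrays did not overlap for 5 lower and 1 higher member, where 2.16% of all probes did so as lower and 1.88% as higher. Among the other probes of the TgMsi2 table, 36 of the 248 lower and 24 of the 383 higher ones did so in TgMsi1 testes. The members' count was thus not particular to the nuclear genes.

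**Figure D3:**
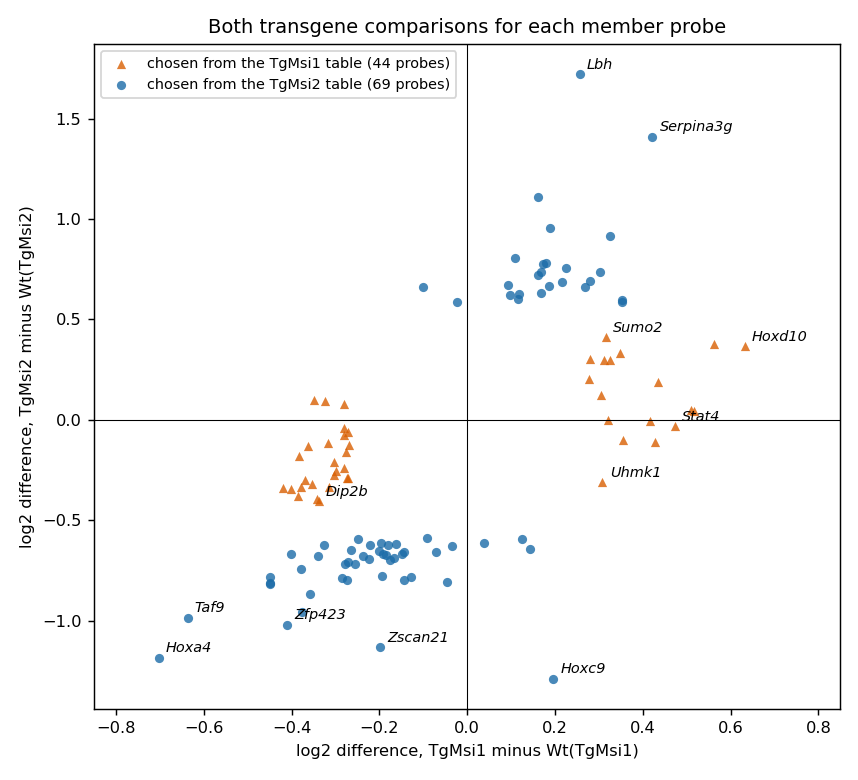
Log2 difference of each of the 113 member probes in TgMsi1 testes (horizontal) and in TgMsi2 testes (vertical), each against its own wild-type littermates; circles are the 69 probes chosen from the TgMsi2 table and triangles the 44 chosen from the TgMsi1 table. The gaps around 0 on the axis that chose a set are set by the tables' fold limits, and 63 of the 69 circles have the same sign on both axes.

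The array medians show how evenly the lower and higher members moved. For the 44 lower members of the TgMsi2 table, the median distance from the wild-type mean was -0.20, -0.50, -0.15 and -0.06 in TgMsi1 replicates 1 to 4, and -0.86, -0.60, -0.79 and -0.66 in the TgMsi2 arrays. The 25 higher members had medians of 0.26, 0.41, 0.17 and 0.00 (below 0 before rounding) in TgMsi1 arrays and 1.09, 0.50, 0.90 and 0.44 in TgMsi2 arrays. The higher members were thus more uneven between TgMsi2 arrays than the lower ones. In Wt(TgMsi1) arrays the medians of the lower members ran from -0.14 to 0.09, and in Wt(TgMsi2) arrays from -0.06 to 0.07.

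**Figure D4:**
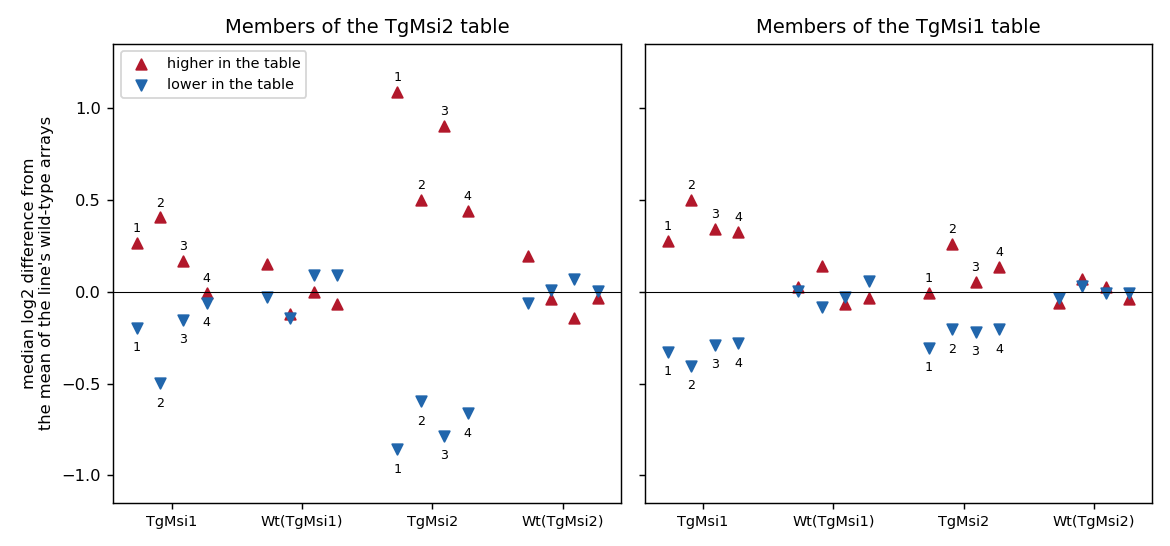
Median log2 distance of the member probes from the mean of their own line's wild-type arrays, for each of the 16 arrays grouped as TgMsi1, Wt(TgMsi1), TgMsi2 and Wt(TgMsi2); upward triangles are members higher and downward triangles members lower in the table named above the panel, with the replicate number beside each transgenic array. For the TgMsi2 table (left), TgMsi2 replicates 1 and 3 lie farthest from 0, at 1.09 and 0.90 for the higher members, and TgMsi1 replicate 2 lies farthest among the TgMsi1 arrays.

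In the TgMsi1 table the members had smaller differences. Hoxd10, a posterior Hox gene, read 8.56, 9.39, 8.75 and 8.51 in TgMsi1 arrays, against 8.25, 7.87, 8.26 and 8.30 in Wt(TgMsi1) arrays (0.63), with replicate 2 far above the others. Spdef, an ETS factor of secretory epithelium, read 8.47, 8.54, 8.64 and 8.48 in TgMsi1 arrays, against 7.79, 8.20, 8.02 and 7.88 in Wt(TgMsi1) arrays (0.56). Spdef was the most even of these genes, with no overlap between the groups. Nr4a3, an orphan nuclear receptor induced early after stimulation, read 8.99, 8.94, 9.07 and 9.11 in TgMsi1 arrays, against 8.33, 8.99, 8.33 and 8.41 in Wt(TgMsi1) arrays (0.51). Its groups overlapped through the high Wt(TgMsi1) replicate 2. Stat4, which carries interleukin signals to the nucleus, read 11.33, 12.04, 11.44 and 11.99 in TgMsi1 arrays, against 11.35, 11.49, 10.60 and 11.47 in Wt(TgMsi1) arrays (0.47), also with overlap. Further members that were higher in TgMsi1 testes were Dpf3 (0.52), a subunit of the BAF remodeller, Tceal1 (0.43), Mettl14 (0.43), a partner in the enzyme that methylates adenosine in mRNA, and Fancl (0.42), the ubiquitin ligase of the Fanconi pathway.

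Lower in TgMsi1 testes was Smarca2, an ATPase of the BAF remodeller, which read 11.92, 12.48, 11.98 and 12.46 in TgMsi1 arrays, against 12.74, 12.72, 12.34 and 12.72 in Wt(TgMsi1) arrays (-0.42). Smg1 (-0.40), a kinase of nonsense-mediated decay, came next, followed by Tbp (-0.38), Cdk14 (-0.38), Zfp768 (-0.38), Rrp12 (-0.37) and the histone chaperone gene Nap1l4 (-0.36). Among these, the TgMsi1 and Wt(TgMsi1) arrays did not overlap for Tbp and Rrp12. None of the 44 members passed limma's adjusted threshold in the comparison that chose them (lowest adjusted p = 0.0672, Spdef), although all 44 had an unadjusted p under 0.05, against 7.32% of all probes.

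The TgMsi2 line then served as the comparison that the TgMsi1 table did not use. There 13 of the 44 members passed in limma (29.5%), against 11.5% of all probes, 24.1% of probes whose mean log2 exceeded 8, and 34.2% of the 202 other probes of the TgMsi1 table. The members' share is thus near that of bright probes and below that of the table's other probes. Of the 13, 2 rose, where 6.2% of all and 12.6% of bright probes did, and 11 fell, where 5.32% of all and 11.4% of bright probes did. The direction was that of the TgMsi1 table for 12 and opposite for 1. Of the 18 higher members 12 lay above 0 in TgMsi2 testes, with a median of 0.16, and of the 26 lower members 23 lay below 0, with a median of -0.25. Among all probes 47.6% lay above 0 and 52.4% below, and the other probes of the TgMsi1 table had medians of 0.18 and -0.30. Without TgMsi2 replicates 1 and 3 together 3 passed, and without 1 array the count was 7 (TgMsi2 replicate 1, Wt(TgMsi2) replicate 2 or Wt(TgMsi2) replicate 4) or 8 (Wt(TgMsi2) replicate 3). Fewer arrays give every probe less power. The shares of all probes in these settings are not given, so these counts cannot be set against 11.5% or 24.1%.

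Sumo2, a small protein attached to nuclear proteins, and Spdef rose. Sumo2 read 12.78, 12.50, 12.64 and 12.46 in TgMsi2 arrays, against 12.24, 12.20, 12.21 and 12.09 in Wt(TgMsi2) arrays (0.41, SE 0.08; limma adjusted p = 0.00605). In the other line Sumo2 read 12.24, 12.41, 12.41 and 12.37 in TgMsi1 arrays and 12.09, 12.08, 11.82 and 12.17 in Wt(TgMsi1) arrays. Neither line's groups overlapped for Sumo2. Spdef read 8.18, 8.62, 8.24 and 8.39 in TgMsi2 arrays, against 7.96, 7.90, 8.01 and 8.06 in Wt(TgMsi2) arrays (0.38, SE 0.09; limma adjusted p = 0.0204).

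The members that fell came from several classes. Dip2b, a gene with a transcription regulator term, read 8.25, 8.51, 8.25 and 8.45 in TgMsi2 arrays, against 8.71, 8.64, 8.92 and 8.82 in Wt(TgMsi2) arrays (-0.41, SE 0.07; limma adjusted p = 0.0036). Med26, a Mediator subunit that recruits elongation factors, read 11.93, 11.74, 12.13 and 11.85 in TgMsi2 arrays, against 12.26, 12.39, 12.36 and 12.22 in Wt(TgMsi2) arrays (-0.40, SE 0.07; limma adjusted p = 0.00395). Both were without overlap in either line, Med26 reading 12.10, 12.04, 11.96 and 12.09 in TgMsi1 arrays and 12.39, 12.45, 12.31 and 12.42 in Wt(TgMsi1) arrays. Sf3a3, a subunit of the U2 spliceosomal particle, read 11.78, 11.55, 11.56 and 11.57 in TgMsi2 arrays, against 11.94, 12.06, 11.87 and 11.87 in Wt(TgMsi2) arrays (-0.32, SE 0.07; limma adjusted p = 0.0098). Med26 and Sf3a3 stayed past the threshold in all 24 other settings that were run, whereas Dip2b, Sumo2, Map2k7 and Rrp12 each lost the call in 2, both of which leave out TgMsi2 replicates 1 and 3 together (limma adjusted p up to 0.149). Of the settings for Spdef, 1 lost the call, without Wt(TgMsi2) replicate 2 (limma adjusted p = 0.056).

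Further members fell less. The kinase gene Map2k7 (-0.27; limma adjusted p = 0.00938), which acts above the JNK kinases, and the ribosome assembly factor gene Rrp12 (-0.30; limma adjusted p = 0.0135) were without overlap in both lines. The Iroquois homeobox gene Irx2 read 7.80, 7.93, 7.97 and 7.95 in TgMsi2 arrays, against 8.22, 8.30, 8.21 and 8.27 in Wt(TgMsi2) arrays (-0.34; limma adjusted p = 0.0355). The zinc finger genes Zfp526 (-0.21), Repin1 (-0.29) and Zfp768 (-0.34) passed with limma adjusted p-values of 0.035, 0.0375 and 0.046, and lost the call in 8, 9 and 13 of the 24 other settings. Irx2, Tbp and Uhmk1 lost it in 9, 7 and 5, and all 6 of these genes lost it without TgMsi2 replicate 1.

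Uhmk1, a kinase of splicing factors, had differences of opposite sign in the 2 lines. It read 8.18, 8.33, 8.28 and 8.06 in TgMsi1 arrays, against 7.88, 7.80, 8.08 and 7.86 in Wt(TgMsi1) arrays, a difference of 0.31 that put it in the TgMsi1 table. In the TgMsi2 line it read 7.87, 8.08, 8.09 and 8.08 in TgMsi2 arrays, against 8.22, 8.44, 8.31 and 8.39 in Wt(TgMsi2) arrays (-0.31; limma adjusted p = 0.0179). The groups overlapped slightly in the TgMsi1 line and not in the TgMsi2 line. The wild-type means of Uhmk1 (7.90 in Wt(TgMsi1) and 8.34 in Wt(TgMsi2) arrays) lay farther apart than the transgenic means (8.21 in TgMsi1 and 8.03 in TgMsi2 arrays). The difference between the lines was not tested.

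**Figure D5:**
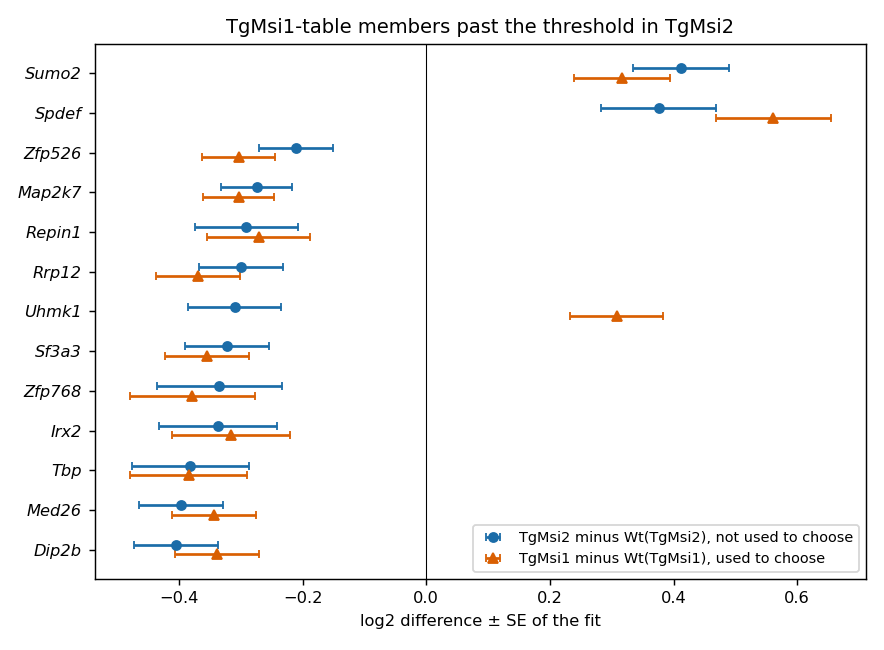
Log2 difference ± SE of the limma fit for the 13 members of the TgMsi1 table that passed the threshold in the TgMsi2 comparison; circles are TgMsi2 minus Wt(TgMsi2), which did not choose them, and triangles TgMsi1 minus Wt(TgMsi1), which did. Of the 13 genes, 12 lie on the same side of 0 in both comparisons, and Uhmk1 lies at 0.31 in TgMsi1 and -0.31 in TgMsi2 testes.

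Several members lay near the threshold or belong to fixed lists of regulators. The tables hold 840 of the 18097 genes on the array (4.64%), and the counts of each list are to be read against that share. Of 53 spermatogenic transcription factors on the array, the tables name 3, of which Tbp and Kdm3a are members. Kdm3a, the histone H3 lysine demethylase needed for sperm chromatin packaging in mice, read 10.17, 10.60, 10.54 and 10.54 in TgMsi2 arrays, against 10.70, 10.78, 10.92 and 10.63 in Wt(TgMsi2) arrays (-0.29; limma adjusted p = 0.0557). In TgMsi1 arrays it read 10.69, 10.47, 10.59 and 10.66, against 10.88, 10.84, 10.76 and 11.03 in Wt(TgMsi1) arrays, so its groups were apart in both lines, though it did not pass. Of 69 chromatin modifiers on the array 4 are named (1 higher and 3 lower in the TgMsi1 table), among them Kdm3a, Smarca2 (-0.34 in TgMsi2; limma adjusted p = 0.151) and the acetyltransferase gene Kat2b (0.33; limma adjusted p = 0.0977), which did not pass in TgMsi2 testes.

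The other lists have few members here. Of 31 immediate early factors on the array the tables name Nr4a3 and Klf6, and of 46 nuclear receptors only Nr4a3, which was near 0 in TgMsi2 testes (0.05). Of 32 interferon and NF-kappaB factors 2 are named, including Stat4, with a TgMsi2 difference of -0.03. Of 54 DNA repair factors 3 are named, including Rad52 and Fancl (-0.01 in TgMsi2), and of 34 splicing factors 2, including Sf3a3. Of 32 Sertoli and Leydig cell factors 1 is named and it is no member. These counts cover only genes of the deposited tables, so they say nothing of the other genes in each list.

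Beyond the nuclear term the members share some further features. The DNA binding term was held by 26.1% of the TgMsi2 members and 29.5% of the TgMsi1 members. Among the other probes it was held by 2.35% of the higher and 4.44% of the lower ones in the TgMsi2 table. In the TgMsi1 table those shares were 2.73% and 1.09%. The members were chosen by a nuclear term, so these shares are not independent of that choice. Zinc ion binding was held by 16.7% of the higher and 38.5% of the lower TgMsi1 members, against 2.73% of the other higher and 8.70% of the other lower probes of that table, so the other probes tilt the same way. In the TgMsi2 table it was held by 12% of the higher and 20.5% of the lower members, against 6.01% of the other higher and 9.68% of the other lower probes. On the X chromosome lay 5 of the 24 higher TgMsi2 members with a known chromosome (20.8%), against 1 of the 41 lower ones (2.44%), and against 7.23% of the other higher and 5.41% of the other lower probes of that table. The higher X-linked members include Smarca1 and Bex2, and the lower is the histone gene H2al1e. These are descriptions of small groups.

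Promoters of the member genes were searched in the RefSeq table for GRCm38.p6, which held 80 of the members' genes. For each gene the 250 bases before its most upstream listed start were read on both strands, since 4163 genes of the table have several starts. The palindrome TGACGTCA, the cyclic AMP response element bound by Atf2, was found in 3 of the 80 (3.75%), against 1.60% of 27025 genes in the table. The TATA box letters TATAAA were found in 3 of the 80 (3.75%), against 13.0% of all, and the GC box letters GGGCGG in 52 (65%), against 33.0%. The D-box letters TTATGTAA were found in 2 (2.5%), against 0.862% of all, and AAAGGTCA, the element that Nr4a receptors bind as monomers, in 0, against 1.31%. The 27025 genes were not limited to those on the array or to bright probes, whereas every member probe had a mean log2 above 8. The shares of the deposited tables' other genes were not counted, so these differences cannot be tied to the nuclear genes. Each motif was counted by itself, whether or not its match overlapped that of another, and a match is a description and no evidence of binding.

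The promoters with the response element among the TgMsi2 members are shown 5′ to 3′ on the gene's strand with the element in capitals. They are shown because Atf2, which binds the element, is itself a member that was lower. Crem, which binds it too, was left out of the members by name and was also lower in TgMsi2 testes (-0.62). Of the genes shown, Irf2bpl was higher in TgMsi2 testes (0.75) and Clk4 was lower (-0.67). A part of Atf2 or Crem in either difference was not tested. The windows lie at chr12:86884815-86885064 on the minus strand for Irf2bpl and chr11:51262864-51263113 on the plus strand for Clk4. The remaining promoter was that of Ing4, a TgMsi1 member with differences of -0.28 in TgMsi1 and -0.08 in TgMsi2 testes, where the element begins at position -250.
Irf2bpl promoter: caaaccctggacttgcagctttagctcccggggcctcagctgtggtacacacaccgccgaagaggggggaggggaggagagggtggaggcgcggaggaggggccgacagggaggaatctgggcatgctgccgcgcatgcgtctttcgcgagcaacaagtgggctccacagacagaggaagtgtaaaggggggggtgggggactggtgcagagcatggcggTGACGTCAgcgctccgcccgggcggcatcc
Clk4 promoter: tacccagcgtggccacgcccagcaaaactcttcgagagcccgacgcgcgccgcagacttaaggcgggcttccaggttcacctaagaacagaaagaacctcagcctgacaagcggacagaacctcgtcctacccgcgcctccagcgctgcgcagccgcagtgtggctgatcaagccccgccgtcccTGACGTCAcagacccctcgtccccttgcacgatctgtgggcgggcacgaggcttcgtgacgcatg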

How the data were processed

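The deposited log2 values of 25697 probes on 16 arrays were used as given. GenomeStudio is named in the submitters' processing notes. The sorted columns differed by at most 0.006 between arrays, as after quantile normalization over all arrays, which ties the arrays of both lines. The authors also deposited, per the file headers, for each table probe, a p-value, the transgenic over wild-type ratio and a score that signs the fold. Folds were at least 1.2 in the TgMsi1 table and 1.5 in the TgMsi2 table, with p-values up to 0.0499 and 0.0488, and the log2 ratio differed from the difference of group means by at most 4.5e-06. The unnormalized table holds 128 columns of arrays whose samples the labels do not give, and these were not used. Gene names come from the comparison tables. Of the members, 107 matched a RefSeq gene by Entrez number and 19 symbols were updated.

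Differences were tested in limma 3.58.1 under R 4.3.3, by fitting all 16 arrays with 1 mean for each group, then contrasts and eBayes. The spread of each probe thus comes partly from the arrays that chose it. With the 8 arrays of the line alone, 15 TgMsi1 members passed in TgMsi2 testes (13 in the main fit). In TgMsi1 testes 0 TgMsi2 members passed with those 8 arrays. The p-values were adjusted by Benjamini-Hochberg across 25697 probes and called under 0.05. The fit was tested on simulated data. Alternatives were a variance trend, a filter on dim probes, the 8 arrays of a line, the replicate number as a block, array weights, median shifts and leaving out arrays. Genes were named by rule: the largest differences in each table, members past the threshold in the other comparison or with the smallest p there, members of fixed lists, genes with several probes, up to 4 per functional class, and those nearest the fold limits. A gene that the rule would name is not reported here. The members and lists were chosen with earlier results of these data known. The number of arrays limits the precision.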

Additional observations from a re-analysis of the deposited data

Results flagged for a closer look

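Of 160 groups of 4 arrays for the 40 probes examined by array, 14 held an array whose gap to the nearest other, divided by the group's range, exceeded Dixon's critical value, where chance gives about 8. In TgMsi1 testes replicate 2 was the low array for Rad52 (9.20), Zfp317 (9.21) and Zfp423 (9.84). In TgMsi2 testes replicate 1 was the low array for Kdm3a (10.17) and Uhmk1 (7.87) and the high array for Sf3a3 (11.78). In Wt(TgMsi1) testes replicate 2 was high for Nr4a3 (8.99) and low for Hoxd10 (7.87), replicate 3 was low for Smarca2 (12.34) and Stat4 (10.60), and replicate 1 was high for Cers2 (11.08). In Wt(TgMsi2) testes replicate 3 was high for Dpf3 (10.04) and Rbms1 (11.69), and replicate 1 was low for Nupl1 (9.49). These are deposited log2 signals, and the causes were not tested.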

How the results depend on the processing

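The replicate numbers were not taken to pair the arrays. Same-numbered arrays deviated together at correlations from 0.02 to 0.44 in the TgMsi1 line and from -0.29 to 0.34 in the TgMsi2 line. These values do not settle whether the arrays are paired. Of the TgMsi1 members in TgMsi2 testes, the 2 that rose became 6 with a mean log2 above 8, 4 with the 8 arrays of the line, 6 with a replicate block and 5 with array weights. Leaving out 1 array gave 1 to 6 that rose, 5 to 12 that fell and 7 to 17 in all. In their own comparison 0 passed, against 1 with a variance trend, 1 with a mean log2 above 8, and 0 to 3 without 1 array. Of the TgMsi2 members, 53 to 68 passed in their own comparison and 0 to 2 in TgMsi1 testes without 1 array, 60 to 65 kept their sign, and the medians were -0.28 to -0.14 and 0.10 to 0.24. Without TgMsi2 replicates 1 and 3, 3 TgMsi1 members passed in TgMsi2 testes (1 rose, 2 fell), 2 passed in their own comparison and 20 TgMsi2 members in theirs. With TgMsi1 replicate 2 left out too, chosen after seeing the data, these were 4 TgMsi1 members (2 fell) and 35 TgMsi2 members. The shares of all probes passing with fewer arrays are not given, so the counts in such settings have no background beside them. In their own comparison the TgMsi2 members passing were 53 without TgMsi2 replicate 1 and 54 without replicate 3, against 64 and 68 without replicates 2 and 4, and the cause was not tested. None of 18 single genes followed reversed in 24 settings, and the call of 13 changed in at least 1. Background correction was not run, because no label ties the unnormalized columns to samples. How the arrays' floor (7.37) bears on the folds was not tested.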
